A study of Mus musculus with 9 samples.

Results

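Cells fold and quality-check secreted and membrane proteins in the endoplasmic reticulum (ER), and the unfolded protein response adjusts that capacity. The 32 genes described here cover this system: the ER chaperones and their cofactors, the disulfide isomerases, one translocon subunit, the machinery of ER-associated degradation, and the sensors and transcription factors of the stress response. They were taken as a named list of genes present in the count table of splenic type-2 conventional dendritic cells (cDC2). Measured values were not a criterion, but the list was chosen with earlier results of these data known. All 32 were among the 14209 genes of the table, and 31 of them were among the 12043 genes with enough counts for a test.

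RNA was sequenced in bulk from cDC2 of the spleen of C57BL/6 mice, with 3 libraries in each of 3 groups. The wild-type (WT) libraries carried no named allele. The CD97-deficient libraries came from mice lacking CD97, an adhesion G-protein-coupled receptor encoded by Adgre5, which the table lists under its older symbol Cd97. The Gα13-deficient libraries carried a floxed Gna13 allele with a Cre driven by the CD11c promoter, so that deletion also reaches other cells that express CD11c, and their genotype label names an Adgre5 deletion as well. Age, sorting strategy, the number of mice behind each library and whether WT mice carried the Cre were not stated in the labels, so each p-value reflects only variation among libraries, part of which may be technical.

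The library totals ran from 5679946 to 13904646 counts. Levels are TMM-scaled counts relative to the library total (CPM). Gna13 was at 186.0 to 228.0 CPM in WT and 91.7 to 113.6 in Gα13-deficient libraries, which did not overlap (edgeR log2 fold change -1.09, adjusted p 6.84e-05). Cd97 was at 899.4 to 1506.3 CPM in WT and 437.6 to 839.8 in the libraries labelled as CD97-deficient, again without overlap but short of the threshold (-0.89, adjusted p 0.105). It was at 1016.4 to 1224.0 CPM in Gα13-deficient libraries, so the Adgre5 deletion named in the Gα13 genotype label is not visible in the RNA level of those libraries. Cd74, the class II invariant chain, was the most abundant listed dendritic cell marker, at 9743.1 to 11761.6 CPM over the 9 libraries. The cell cycle list differed from WT in both knockouts, with 36 of its 38 genes called higher in each, and its mean log2 deviation was -0.87 to -0.37 in WT and 0.20 to 0.50 in the other libraries. Libraries with a female expression pattern were WT library 2, the 3 CD97-deficient libraries and Gα13-deficient library 2.

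ER chaperones bind nascent proteins and release them when folded, while disulfide isomerases form and rearrange their cysteine bridges. Proteins that fail to fold are sent back to the cytosol for destruction by the proteasome. When unfolded proteins accumulate, the membrane sensors IRE1α (Ern1), PERK (Eif2ak3) and ATF6 act through XBP1, ATF4 and the cleaved ATF6 fragment to raise folding capacity and to restrain translation. IRE1α and XBP1 are known to be active in conventional dendritic cells without added stress, most of all in the subset that cross-presents antigen.

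The best described DNA element of this response is the ER stress response element (ERSE), a CCAAT box and a CCACG box with 9 bases between them (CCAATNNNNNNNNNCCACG). RefSeq promoter sequences, from 250 bases before to 50 bases after the gene start in GRCm38.p6, were matched for 28 of the 32 members. On either strand, 8 of the 28 held an ERSE, against 39 of all 32851 promoters of that length (0.119%), or 37 of 27025 genes (0.137%), members included. The element was picked as one known from this response, so these shares are a description and not a test. The 8 genes were Hspa5, Hsp90b1, Dnajc3, Creld2, Calr, Canx, Pdia6 and Syvn1, and Hsp90b1 held 2 copies in opposite directions. They encode 6 chaperones and cofactors, 1 isomerase and 1 ubiquitin ligase, while the matched promoters of the cofactor genes Dnajb9, Dnajb11 and Sdf2l1 held none. The elements are shown because the RNA of the genes with and without them is set side by side after the comparisons. Each is printed 5′ to 3′ on the strand that carries CCAAT first, with 12 flanking bases and with the 2 boxes in capitals.
Hspa5, chr2:34772013-34772055, plus strand: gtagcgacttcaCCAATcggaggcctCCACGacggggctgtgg
Hsp90b1 distal, chr10:86705626-86705668, minus strand: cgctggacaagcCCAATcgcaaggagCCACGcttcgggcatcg
Hsp90b1 proximal, chr10:86705521-86705563, plus strand: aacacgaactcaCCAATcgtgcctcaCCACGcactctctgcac
Dnajc3, chr14:118937815-118937857, plus strand: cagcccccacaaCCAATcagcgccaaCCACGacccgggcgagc
Creld2, chr15:88819508-88819550, minus strand: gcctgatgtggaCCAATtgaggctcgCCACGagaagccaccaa
Calr, chr8:84847063-84847105, plus strand: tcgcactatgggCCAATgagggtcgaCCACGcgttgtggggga
Canx, chr11:50325788-50325830, minus strand: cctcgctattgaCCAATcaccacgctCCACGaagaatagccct
Pdia6, chr12:17266479-17266521, plus strand: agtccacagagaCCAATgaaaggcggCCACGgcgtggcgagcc
Syvn1, chr19:6046520-6046562, plus strand: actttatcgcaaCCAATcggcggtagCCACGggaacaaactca

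All 9 ERSE matches lay upstream of the gene start, between positions -212 and -26 relative to it. A second arrangement of the same boxes, ERSE-II (ATTGGNCCACG), was in 2 of the 28 promoters, those of Herpud1 and Dnajb11, and in 0.0365% of all promoters. The Herpud1 element is printed here because it stands beside a match to the core of a CARE element, TGATGCAA, which ATF4 is known to bind. That core was in 0.895% of all promoters and in no other member's. The XBP1 core TGACGTGG was in none of the 28 promoters and in 0.676% of all. Each motif was searched on both strands, and a match is a description of the letters only.
Herpud1 ERSE-II, chr8:94386365-94386399, plus strand: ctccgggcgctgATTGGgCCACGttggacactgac
Herpud1 CARE, chr8:94386305-94386336, minus strand: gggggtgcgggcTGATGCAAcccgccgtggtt

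**Figure D1:**
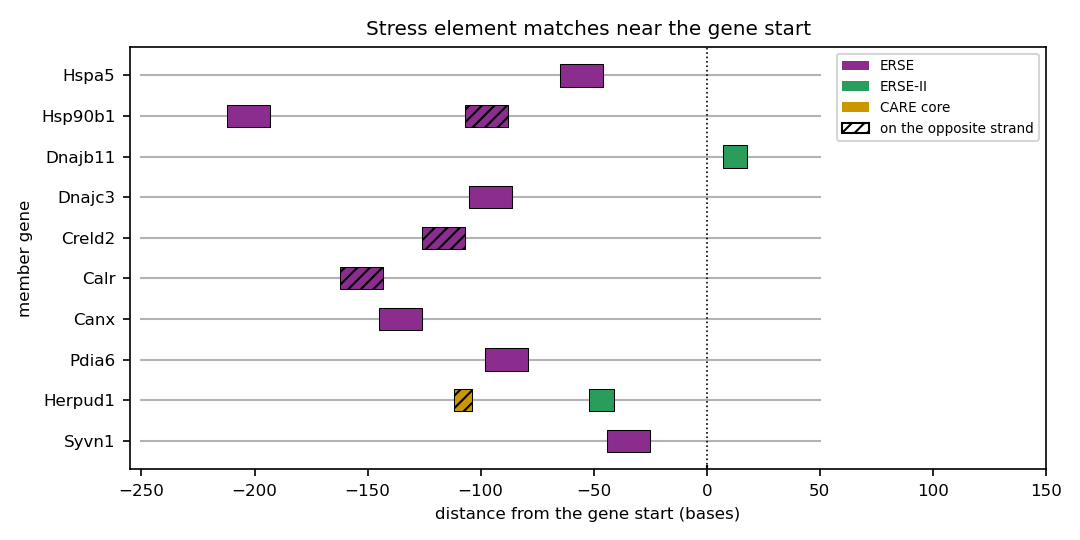
Matches to ERSE, ERSE-II and the CARE core in the promoters of the 10 members that hold any of them, drawn by distance from the gene start in bases along a grey line that spans the 300 bases searched. Hatched boxes lie on the strand opposite to the gene. All ERSE boxes sit between positions -212 and -26, and the Dnajb11 element is the only box after it.

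In WT cDC2 31 of the 32 members were expressed above the median gene, led by the large chaperones of the ER lumen. Levels between genes were compared as CPM per kilobase of exon. Hsp90b1, which encodes the ER Hsp90 GRP94, had the highest level of the 32 genes, 193 ± 51.2 (SD, n = 3), and Hspa5, which encodes the ER Hsp70 BiP, followed at 185 ± 38.6. Canx, encoding the membrane-bound lectin chaperone calnexin, was at 80.0 ± 11, and Herpud1, encoding a scaffold of the ER degradation complex, at 77.4 ± 6.93. The median over all 14015 genes with a known length was 4.51, and Trib3 was the only member below it.

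By this measure the lowest 4 members were Manf, Ern1, Ddit3 and Trib3. Manf, whose product binds BiP, was at 6.89 ± 1.49 CPM per kilobase. Ern1, the IRE1α sensor, was at 6.17 ± 0.391, and Ddit3, encoding the pro-apoptotic factor CHOP, was at 5.40 ± 0.313. Trib3, a pseudokinase gene induced by ATF4 and CHOP under severe stress, was at 0.0822 ± 0.0195 and had 1 to 2 counts in each WT library and 0 to 3 counts in the other 6, at or under the limit of 3 counts. Among factors, Atf4 (38.5 ± 4.68), Atf6 (38.2 ± 4.35), Ppp1r15a (32.1 ± 6.35) and Xbp1 (32 ± 3.02) had similar levels per kilobase. Eif2ak3, the PERK sensor, stood lower at 10.4 ± 0.74.

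Most neighbours in this order could not be separated. In only 6 of the 31 neighbouring pairs did the 3 WT libraries of the higher gene all lie above those of the lower. These were Hspa5 over Canx, P4hb over Dnajb11, Xbp1 over Pdia4, Derl1 over Eif2ak3, Ern1 over Ddit3, and Ddit3 over Trib3. With the longest transcript as the length in place of all exon bases, Herpud1 moved from 77.4 to 92.6 and passed Canx, and P4hb no longer lay above Dnajb11. Ddit3 moved from 5.40 to 9.54 and then lay above Ern1 (7.27) in all 3 WT libraries, so that order reversed. Manf moved from 6.89 to 10.8 and left the lowest 4, which Ero1l joined at 9.32, and Xbp1 moved from 32 to 48.8. The other 4 separations held with either length.

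**Figure D2:**
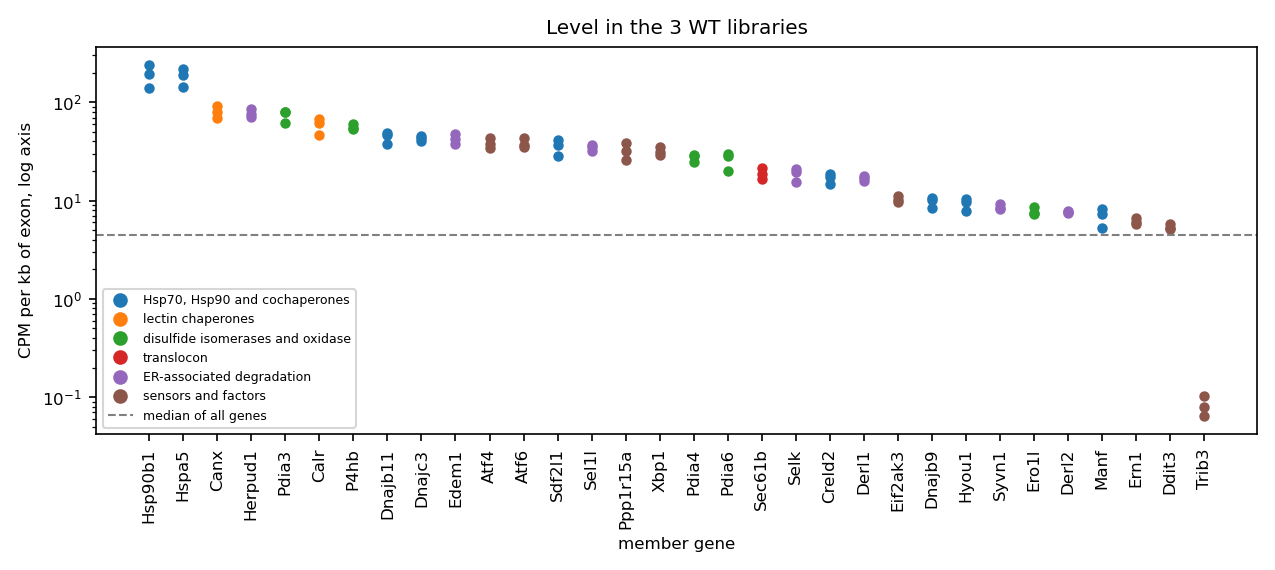
Level of each of the 32 members in the 3 WT libraries, as CPM per kilobase of exon on a log axis, with 1 point for each library, coloured by role. Genes are ordered by their mean. The dashed line is the median of all genes, 4.51, and Trib3 is the only member below it.

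Before the groups are compared, WT library 3 has to be set apart. It had the lowest value of the 9 libraries for 16 of the 31 tested members, whereas it was the lowest for 16.7% of all genes tested. The shortfall was in the folding genes. The mean deviation of the 9 Hsp70 and Hsp90 family chaperones and cofactors from their 9-library mean was -0.44 on the log2 scale in WT library 3, against -0.03 and -0.05 in the other WT libraries. The lectin chaperones were at -0.41 and the isomerases and oxidase at -0.28 in that library, while the sensors and factors were at 0.11. Values without it stand beside the member counts, the role medians that are given and several of the named genes that it moves.

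**Figure D3:**
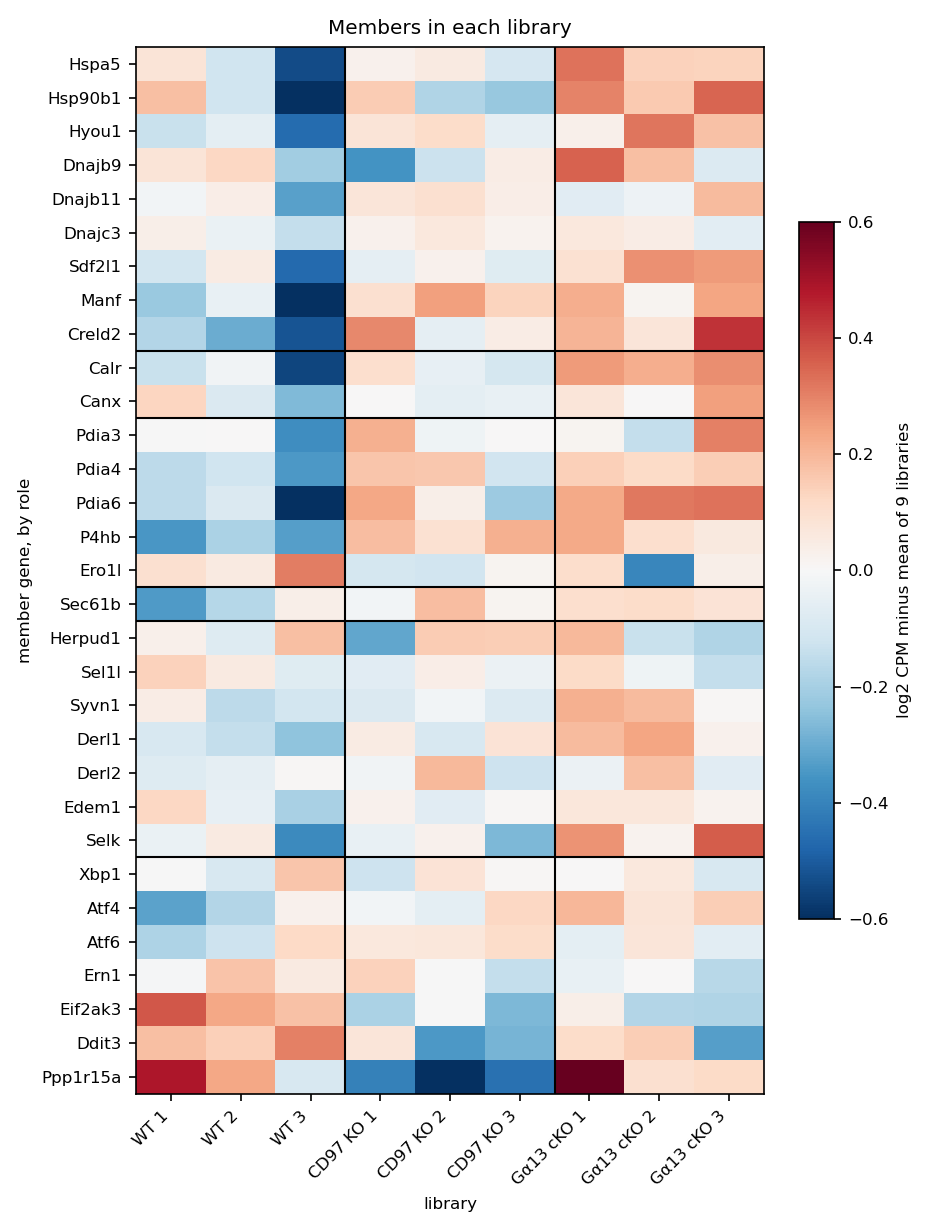
Each tested member (rows, grouped by role) in each library (columns, grouped by genotype), as log2 CPM minus the gene's mean over the 9 libraries, with colours capped at 0.6 either way. WT library 3 is blue across the chaperones, lectins and isomerases but red for Ero1l, the Gα13-deficient libraries are mostly red there, and Ppp1r15a is blue in the 3 CD97-deficient libraries.

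The first comparison set CD97-deficient against WT libraries. Few members passed the test, at shares near those of all genes, which are given below. Gene positions are those of GENCODE M21 on GRCm38. P4hb, encoding protein disulfide isomerase, rose 1.37-fold. Eif2ak3 fell to 0.749 of WT and Ppp1r15a, which encodes the GADD34 subunit that restarts translation by removing the phosphate from eIF2α, fell to 0.61 of WT. No chaperone, lectin or degradation gene passed.

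Of the 31 tested members, 1 was called higher and 2 lower in CD97-deficient libraries at an adjusted p under 0.05 in edgeR's quasi-likelihood test, against 4.84% and 3.69% of all genes tested called higher and lower. Calls of 1 and 2 members out of 31 are near the background. The median log2 fold change of the members was 0.085 (all genes: -0.003), with 22 of 31 above 0, and it fell to 0.039 without WT library 3. CD97-deficient libraries lay wholly above WT for 7 members and wholly below for 4, where 14.7% and 13.5% of all genes did so. Without WT library 3 these were 10 and 6 members, beside 20.7% and 19.7% of all genes, and 18 of 31 fold changes were above 0. In that fit 1 member was called higher and 2 lower, beside 3.9% and 3.3% of all genes. The median of the 9 Hsp70 and Hsp90 family genes and cofactors was then 0.039 in place of 0.161.

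P4hb (chr11:120560298-120573253, minus strand) was at 153.5, 171.6 and 155.4 CPM in the WT libraries and at 222.2, 208.3 and 226.7 in the CD97-deficient libraries. The lowest CD97-deficient library was above the highest WT library, and WT library 3 was not low for this gene. The log2 fold change was 0.45 (SE 0.08) with an adjusted p of 0.00426 in edgeR, and 0.43 without WT library 3.

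Ppp1r15a (chr7:45522916-45526268, minus strand) was at 112.7, 94.6 and 75.4 CPM in WT and at 60.9, 52.9 and 59.0 in the CD97-deficient libraries. The knockout libraries were close to each other and all below WT, whose own libraries were spread. The edgeR log2 fold change was -0.71 (SE 0.17, adjusted p 0.021). The call was lost when WT library 1 (adjusted p 0.0695) or any 1 of the CD97-deficient libraries (0.0589 to 0.0872) was left out.

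Eif2ak3 (chr6:70844515-70905245, plus strand) was at 67.5, 61.2 and 58.9 CPM in WT and at 45.7, 52 and 43.2 in CD97-deficient libraries, again without overlap. In edgeR it fell by 0.42 on the log2 scale (SE 0.11, adjusted p 0.0322). Without WT library 1 the adjusted p was 0.112, and without CD97-deficient library 1 or 3 it was 0.105 or 0.150. PERK is the kinase that phosphorylates eIF2α during ER stress and GADD34 belongs to the phosphatase that reverses it, and both fell here.

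Manf had the next smallest p among the members and did not pass. Its CPM values were 25.5, 28.8 and 18.5 in WT and 31.8, 35.3 and 32.6 in CD97-deficient libraries, which did not overlap (edgeR log2 fold change 0.45, SE 0.15, adjusted p 0.0869). WT library 3 was the lowest of its group, and without it the fold change was 0.29 (adjusted p 0.223).

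A female pattern was shared by all CD97-deficient libraries and 1 WT library, so sex and CD97 loss are largely confounded in this comparison. With that pattern as a term, edgeR gave adjusted p-values of 0.0641 for P4hb, 0.168 for Ppp1r15a and 0.233 for Eif2ak3, and no member was called. The log2 fold changes were then 0.42, -0.62 and -0.37. With the cell cycle level as a term, no member was called in either knockout and 0 and 1 genes of the whole table were. The part of cell cycle in these differences cannot be told apart from genotype, because that level separated WT from both knockouts. In bulk samples, fewer cells of a type and less RNA per cell cannot be told apart either.

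**Figure D4:**
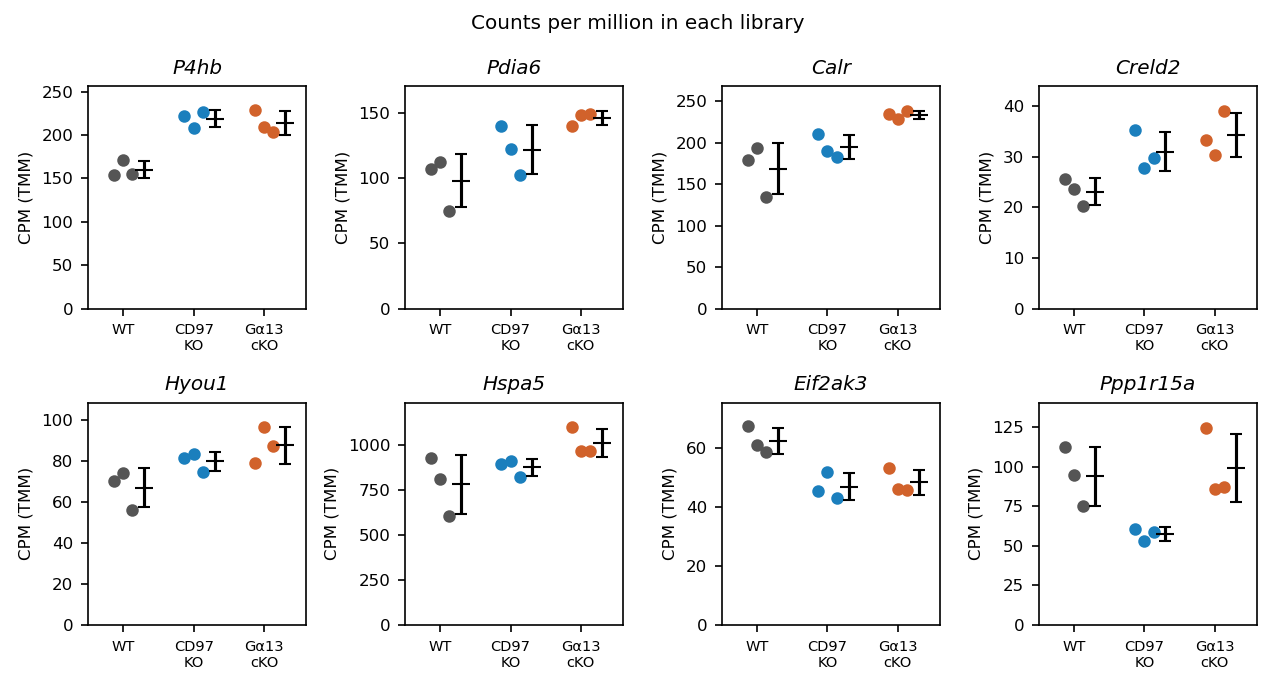
TMM-normalised CPM of 8 members in each library, 1 point for each library, with the mean and SD of each group (n = 3) in black to the right of its points, on axes that start at 0. P4hb is above WT in both knockouts, Eif2ak3 is below WT in both, and Ppp1r15a is below WT in the CD97-deficient libraries. WT library 3 is the lowest WT point for every gene shown except P4hb.

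The second comparison was for loss of Gα13, a G protein alpha subunit that signals downstream of cell-surface receptors. Here folding genes rose: P4hb, Pdia6, the lectin chaperone gene Calr, and the chaperone genes Creld2 and Hyou1, by 1.31-fold to 1.48-fold. Eif2ak3 fell to 0.774 of WT. The degradation genes and the transcription factors did not pass the test. The same 3 WT libraries serve both comparisons, so a low or high WT library moves both.

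In edgeR's quasi-likelihood test 5 of the 31 members were called higher in Gα13-deficient libraries and 1 lower, beside 5.74% and 5.24% of all genes tested. The median log2 fold change was 0.185 (all genes: -0.008) and 24 of 31 were above 0. Gα13-deficient libraries lay wholly above WT for 12 members and wholly below for 1, while 15.5% and 14.0% of all genes did so. Without WT library 3 the median was 0.140, and 4 members were called higher and 0 lower, beside 4.23% and 3.86% of all genes. For 13 members the knockout libraries then lay wholly above WT and for 1 wholly below, beside 20.8% and 18.9% of all genes. Scaled by library totals rather than TMM factors, 9 members were called higher and 0 lower, and the split of all called genes moved from 691 higher and 631 lower to 861 and 523. With the replicate number as a block, 7 members were called higher and 1 lower. With the cell cycle level as a term, Calr, Pdia6 and Hyou1, 3 of the 5 called higher, had log2 fold changes of -0.14, -0.14 and -0.23.

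Among the 9 genes of the Hsp70 and Hsp90 families and their cofactors, all 9 fold changes were above 0, with a median of 0.371, and 2 were called. In the fit without WT library 3 all 9 were still above 0, the median was 0.232 and edgeR called none, with adjusted p-values of 0.0749 for Creld2 and 0.151 for Hyou1. Creld2, a cysteine-rich stress-induced gene of the ER (chr15:88819646-88826683, plus strand), was at 25.6, 23.5 and 20.2 CPM in WT and at 33.3, 30.4 and 39.0 in Gα13-deficient libraries. All 3 knockout libraries were above all WT libraries (edgeR log2 fold change 0.57, SE 0.15, adjusted p 0.0227). Its adjusted p was 0.0960 without Gα13-deficient library 3.

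Hyou1, encoding the BiP nucleotide exchange factor GRP170 (chr9:44379490-44392369, plus strand), was at 70.5, 74.2 and 56.1 CPM in WT and at 78.9, 96.7 and 87.5 in Gα13-deficient libraries. The groups did not overlap, though the nearest libraries were close. Its edgeR log2 fold change was 0.39 (SE 0.12, adjusted p 0.0461). This call sat at the threshold: it held in 2 of the 9 fits with 1 library removed. The adjusted p was 0.0329 with the block over the 9 libraries. Fitted on the 2 groups only, it was 0.0874 without a block and 0.0583 with one.

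Hspa5, whose product BiP holds all 3 sensors inactive in unstressed cells, was at 929.3, 811.1 and 606.2 CPM in WT, 894.5, 914.1 and 821.8 without CD97 and 1101.2, 967.4 and 966.6 without Gα13. Gα13-deficient libraries lay above both other groups, and CD97-deficient libraries overlapped WT. Against WT the edgeR log2 fold change was 0.37 (SE 0.13, adjusted p 0.0818) in Gα13 deficiency and 0.16 (SE 0.13, adjusted p 0.461) in CD97 deficiency. With the replicate number as a block over the 9 libraries, the Gα13 adjusted p was 0.0204. Without WT library 3 and without a block it was 0.178, with a fold change of 0.22. Fitted on the Gα13-deficient and WT groups only, it was 0.134 without a block and 0.0337 with one.

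Hsp90b1 was at 976.2, 791.6 and 564.4 CPM in WT and at 1056.5, 961.3 and 1098.3 in Gα13-deficient libraries. WT library 1 lay within the knockout range, and the test was not passed (edgeR log2 fold change 0.42, SE 0.18, adjusted p 0.192). Sdf2l1, a BiP cofactor gene, and Manf did not overlap WT, with log2 fold changes of 0.37 and 0.45 and edgeR adjusted p-values of 0.0806 and 0.0732. The fold changes of Hsp90b1, Sdf2l1 and Manf were 0.23, 0.24 and 0.30 without WT library 3. Dnajb9, Dnajb11 and Dnajc3, which encode J-domain partners of BiP, had log2 fold changes of 0.15, 0.13 and 0.06 (0.05, 0.03 and 0.02 without that library), and their libraries overlapped WT.

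Calr, encoding the soluble lectin chaperone calreticulin (chr8:84841850-84846934, minus strand), was at 178.5, 193.1 and 134.0 CPM in WT, 210.5, 189.6 and 182.5 without CD97 and 234.1, 228.4 and 238.2 without Gα13. The Gα13-deficient libraries lay close together and above the other 6. The edgeR log2 fold change against WT was 0.47 (SE 0.11, adjusted p 0.0157), and the call held in 9 of 9 fits with 1 library removed, with a highest adjusted p of 0.0499. Without WT library 3 the fold change was 0.33. Canx, its membrane-bound relative, overlapped WT with a log2 fold change of 0.17 (adjusted p 0.281), or 0.08 without that library.

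Of the disulfide genes, 2 of 5 were called. Pdia6 (chr12:17266545-17284770, plus strand) was at 106.9, 112.4 and 74.7 CPM in WT, 140.1, 122.3 and 102.6 without CD97 and 139.6, 148.5 and 149.4 without Gα13. The Gα13-deficient libraries were all above WT, and the CD97-deficient ones overlapped it. The edgeR log2 fold change was 0.57 (SE 0.15, adjusted p 0.0242) in Gα13 deficiency. It was 0.41 without WT library 3 (adjusted p 0.0480), and leaving out 1 Gα13-deficient library gave 0.0527 to 0.0832.

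P4hb was at 229.3, 209.5 and 203.5 CPM in Gα13-deficient libraries, all above the WT libraries listed before. The edgeR log2 fold change was 0.42 (SE 0.08, adjusted p 0.0051), and the call held in 9 of 9 fits with 1 library removed, with adjusted p-values of 0.0275 or less. The fold change was 0.40 without WT library 3. P4hb was the only member called higher in both knockouts. Pdia4 was at 67.7, 69.4 and 59.3 CPM in WT and at 83.3, 81.7 and 83.5 in Gα13-deficient libraries, without overlap (adjusted p 0.0514, or 0.153 without WT library 3). Pdia3 overlapped WT in both comparisons, with log2 fold changes of 0.18 and 0.19, or 0.07 in each without WT library 3. Ero1l, the gene of the oxidase that recharges the isomerases, had values below 0 in both, -0.22 and -0.21, and did not pass (adjusted p 0.348 and 0.352).

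Sec61b, a subunit of the protein-conducting channel, had log2 fold changes of 0.22 and 0.25 in CD97 and Gα13 deficiency and passed neither test. Without WT library 3 these were 0.32 and 0.35. The 7 degradation genes had no calls in either comparison, with medians of 0.013 and 0.084, or -0.013 and 0.092 without that library. Derl1, encoding a derlin of the retrotranslocation complex, was the nearest to the threshold: 58.7, 56.8 and 53.2 CPM in WT and 71.6, 73.9 and 63.9 in Gα13-deficient libraries, which did not overlap (edgeR adjusted p 0.0635, or 0.160 without WT library 3). Selk, also named Selenok, a selenoprotein gene of the same complex, had a log2 fold change of 0.34 with overlapping libraries (adjusted p 0.139), and 0.22 without that library. Sel1l and Syvn1, the adaptor and the ubiquitin ligase at the core of the complex, had values of -0.06 and 0.21, and Derl2, Edem1 and Herpud1 had 0.07, 0.08 and -0.08.

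**Figure D5:**
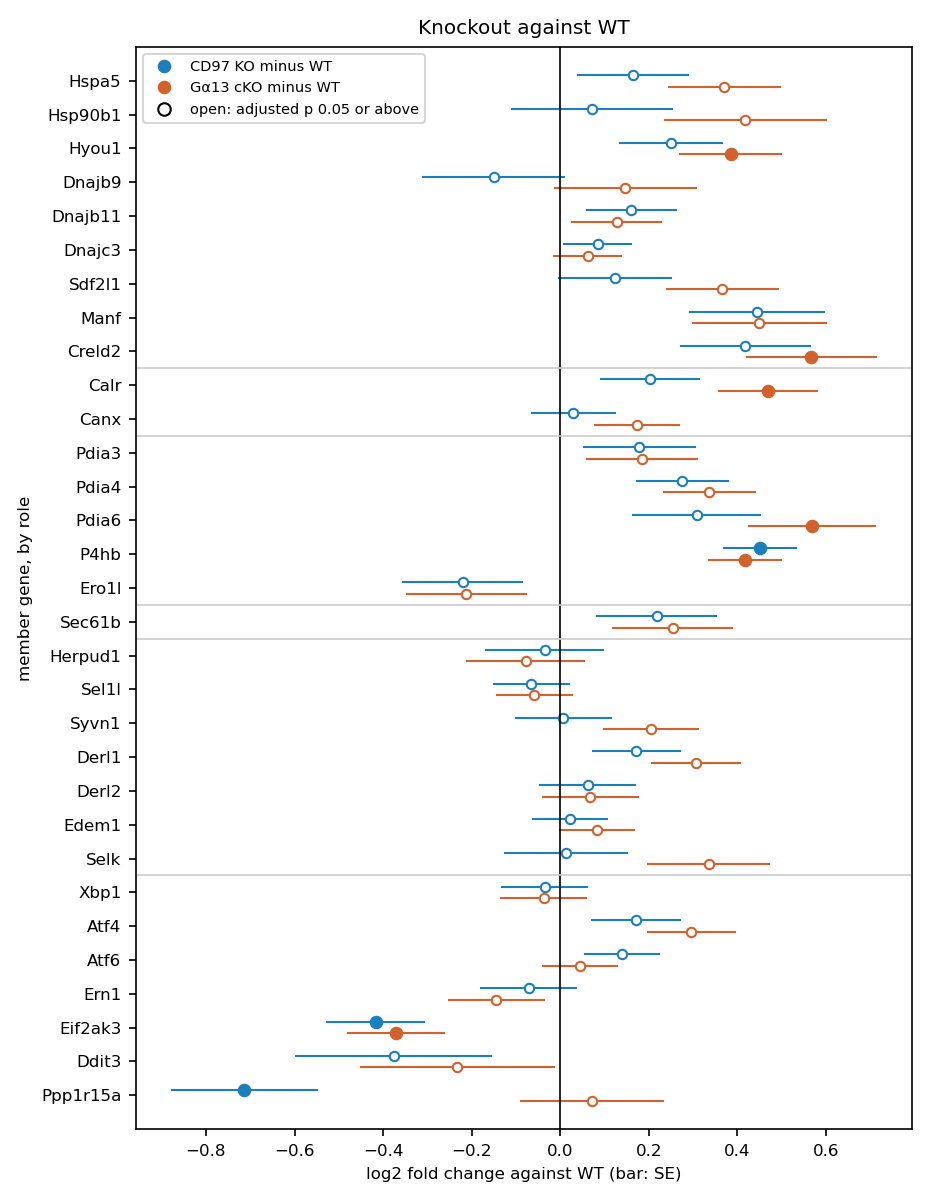
Log2 fold change of each tested member against WT in CD97-deficient (blue) and Gα13-deficient (orange) libraries, with bars of 1 SE and filled points for an adjusted p under 0.05. Folding genes in the upper rows are mostly right of 0, and Eif2ak3 is left of 0 in both. Degradation genes run from -0.065 to 0.172 in CD97 deficiency. In Gα13 deficiency they run from -0.078 to 0.336, with Selk, Derl1 and Syvn1 the furthest right. The 2 sets of values share the WT libraries.

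The sensors and transcription factors are given in every library, since they are the regulators of the genes above. Xbp1, encoding the factor downstream of IRE1α, was at 101.8, 95.4 and 114.7 CPM in WT, 93.6, 108.0 and 102.6 without CD97 and 102.1, 106.6 and 95.5 without Gα13. The groups overlapped fully (log2 fold changes -0.04 and -0.04, adjusted p 0.861 and 0.854). Gene counts do not tell spliced from unspliced Xbp1, so its activation is not measured here. Ern1 was at 47.7, 54.0 and 49.8 CPM in WT, 52.8, 47.9 and 43.5 without CD97 and 46.5, 48.0 and 42.8 without Gα13, also overlapping (-0.07 and -0.14, adjusted p 0.735 and 0.442).

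Atf6 was at 322.7, 336.5 and 398.2 CPM in WT, 383.4, 384.6 and 396.0 without CD97 and 352.8, 385.6 and 351.6 without Gα13. WT library 3 was the highest of the 9, in contrast to its low chaperones, and both comparisons overlapped (0.14 and 0.04, adjusted p 0.344 and 0.796). Atf4, encoding the factor translated when PERK is active, was at 80.7, 89.2 and 102.6 CPM in WT, 99.5, 96.8 and 109.7 without CD97 and 115.6, 106.2 and 111.8 without Gα13. Gα13-deficient libraries were all above WT, with a log2 fold change of 0.30 (SE 0.10) and an edgeR adjusted p of 0.0747. Without WT library 3, the highest WT library for this gene, the adjusted p was 0.0318. In CD97 deficiency the groups overlapped (0.17, adjusted p 0.323).

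Eif2ak3 was at 53.3, 46.1 and 46.0 CPM in Gα13-deficient libraries, all below its WT libraries. The edgeR log2 fold change was -0.37 (SE 0.11, adjusted p 0.0441), and the call held in 2 of the 9 fits with 1 library removed. Leaving out any 1 WT library gave adjusted p-values of 0.0538 to 0.147, while the block over the 9 libraries gave 0.0471. On the 2 groups only it was 0.0656 without a block and 0.054 with one. Ddit3 was low throughout, at 9.05, 8.83 and 9.85 CPM in WT, 8.4, 6.3 and 6.59 without CD97 and 8.63, 8.87 and 6.35 without Gα13. The CD97-deficient libraries were all below WT but did not pass (-0.38, adjusted p 0.323), and the Gα13-deficient ones overlapped it (-0.23, adjusted p 0.553). Ddit3 shares 68 exon bases with Mars on the other strand, a gene at 45.7 CPM, and the sources used here do not say if strand was used in counting.

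Of the 5 members called higher in Gα13 deficiency, 3 held an ERSE: Calr, Creld2 and Pdia6. The 8 genes with the element had a median log2 fold change of 0.394 there, with all 8 above 0 and a range of 0.062 to 0.569. The 19 tested genes with a matched promoter and no ERSE had a median of 0.084, with 12 above 0, 1 called higher and 1 lower. Leaving out WT library 3, the medians were 0.225 and 0.037, again with all 8 and with 12 of 19 above 0. Counting ERSE-II as well, 10 genes had a median of 0.288 with 9 above 0 (0.201 without that library). In CD97 deficiency the medians of the genes with and without an ERSE were 0.124 and 0.013, or 0.025 and -0.003 without WT library 3, and edgeR called none of the 8. These are counts over 2 small lists that also differ in role, and no test was made of them. P4hb and Eif2ak3, called in both comparisons, held none of the 4 motifs in the window, and Hyou1 had no matched promoter.

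The third comparison set Gα13-deficient against CD97-deficient libraries. No member was called by edgeR, beside 0.0332% of genes called higher and 0.0166% called lower. At an unadjusted p under 0.05 there were 3 members, beside 722 of all 12043 genes tested, and DESeq2 called 1 member. The median was 0.062 (all genes: -0.003). Gα13-deficient libraries were wholly above CD97-deficient ones for 6 members and wholly below for 0, while 7.16% and 5.99% of all genes were.

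Ppp1r15a had the smallest p. It was at 124.4, 86.2 and 87.3 CPM in Gα13-deficient libraries, each above every CD97-deficient library (52.9 to 60.9), and within the WT range except for library 1. The log2 difference was 0.79 (SE 0.17), with an edgeR adjusted p of 0.202. The same difference was called by DESeq2 (0.00233), by edgeR on these 2 groups only (0.0248) and with the replicate number as a block (0.0215). Same-numbered libraries of these 2 groups correlated at -0.0731 to 0.0112, so the block rests on no pairing seen in the data. Over all alternatives the adjusted p of Ppp1r15a ran from 0.00233 to 0.834. The highest was with the sex pattern as a term, where the log2 difference was 0.68. Within this comparison only Gα13-deficient libraries 1 and 3 lacked the female pattern, so sex and genotype are largely confounded here too. Against WT, the Gα13-deficient log2 fold change was 0.07 (SE 0.16, adjusted p 0.824).

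The next 3 members by p were Calr (0.27, SE 0.11, adjusted p 0.782), Selk (0.32, SE 0.14, adjusted p 0.788) and Sdf2l1 (0.24, SE 0.13, adjusted p 0.864). For Calr and Sdf2l1 the Gα13-deficient libraries lay above the CD97-deficient ones, with Sdf2l1 at 46.9, 53.2 and 52.5 against 42.4, 44.8 and 41.8 CPM. For Selk they overlapped, with 46.1, 38.9 and 49.3 against 37.1, 39.0 and 31.8 CPM. None passed in any of the 19 alternatives.

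Genes of the wider ER machinery beyond the members were read against the same shares of all genes tested, 4.84% called higher and 3.69% lower in CD97 deficiency and 5.74% and 5.24% in Gα13 deficiency. Values in parentheses are edgeR log2 fold changes against WT. Among 30 other chaperone and cofactor genes tested, Mesdc2, a chaperone of lipoprotein receptors, was called in CD97 deficiency (0.36), and Mesdc2 (0.43) and the prolyl isomerase gene Fkbp2 (0.67) in Gα13 deficiency. List medians were 0.063 and 0.072. Among 19 other disulfide genes, Sep15, a selenoprotein that binds the glycoprotein folding sensor, was called in both (0.44 and 0.45). Among 35 other degradation genes the calls over the 9 libraries were all lower. They were Get4, which hands tail-anchored proteins to the ER, in CD97 deficiency (-0.52), and Get4 (-0.50), the ubiquitin ligase gene Rnf103 (-0.62) and the Herpud1 relative Herpud2 (-0.43) in Gα13 deficiency. Without WT library 3 this direction did not hold, with 1 called higher in CD97 deficiency and 1 lower in Gα13 deficiency. The chaperone list then had 0 and 1 called higher, and the disulfide list 1 and 1.

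The 37 translocon, signal peptidase and N-glycosylation genes had 1 call in CD97 deficiency (2.70%), the oligosaccharyltransferase subunit Stt3b (0.43). In Gα13 deficiency they had 4 calls (10.8%), all higher: Stt3b (0.51), the oligosaccharyltransferase subunit Rpn1 (0.51), the signal peptidase subunit Spcs2 (0.40) and the translocon-associated Ssr3 (0.31). Fold changes were above 0 for 31 and 29 of the 37. Of 29 ER to Golgi transport genes, 3 (10.3%) were called higher in CD97 deficiency: the cargo receptor gene Tmed2 (0.74), the GTPase gene Sar1a (0.31) and the COPI coat gene Arcn1 (0.29). In Gα13 deficiency 4 (13.8%) were called higher: Tmed2 (0.60), Arcn1 (0.32) and the COPII coat genes Sec24d (1.08) and Sec23b (0.43). The translocon list had 1 and 2 calls and the transport list 4 and 2, all higher, without WT library 3.

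Of 33 tested genes known to lie downstream of ATF4 and CHOP, 6 (18.2%) were called higher and 0 lower in CD97 deficiency. By smallest p these began with Shmt2 (0.75), Psat1 (0.89), Gars (0.54) and Cars (0.68), which serve serine and one-carbon metabolism and tRNA charging. In Gα13 deficiency 6 (18.2%) were called higher and 2 (6.06%) lower, led by Slc7a11 (-1.31), Cars (0.74), Psat1 (0.87) and Gars (0.48). Slc7a11, the cystine transporter gene, and Sesn2 (-0.45), a stress-induced brake on mTORC1, were the 2 that fell. The list medians were 0.208 and 0.261, beside -0.003 and -0.008 for all genes. When WT library 3 was left out, 5 were called higher in CD97 deficiency, and 4 higher and 1 lower in Gα13 deficiency.

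Values of 3 genes from the same ATF4 and CHOP list were looked up after the calls were seen, and Atf3 was among its tested genes. Atf3 was at 33.2, 20.8 and 15.5 CPM in WT, 16.6, 16.1 and 19.3 without CD97 and 39.4, 18.4 and 23.3 without Gα13, which overlapped in both comparisons with WT. Chac1, a glutathione-degrading enzyme gene, was at 0.873 CPM or less in every library. Asns, asparagine synthetase, was at 0.109, 0.544 and 0 CPM in WT and at 0.592 to 1.01 in the 6 knockout libraries, all above WT. Neither Chac1 nor Asns had enough counts for a test. Of the 21 other tested sensors, proteases and factors, none was called by edgeR in either comparison. At an unadjusted p under 0.05 there were 2 and 4 of them, beside 2946 and 3111 of all 12043 genes tested. Of 8 reported substrates of IRE1α decay (RIDD), none was called over the 9 libraries and none was under that p. Without WT library 3, 0 were called in CD97 deficiency. In Gα13 deficiency 1 was then called higher, beside 4.23% of all genes, and 7 of 8 were above 0. Bloc1s1, the best known of these substrates, had log2 fold changes of 0.34 and 0.22 over the 9 libraries.

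Plasma cells are rich in ER chaperones, so their markers were read beside these genes. Of 12 listed markers 8 were in the table and none was called in either comparison, and none of the 8 was at 0 in every library. Their summed level was 69.0 to 104.8 CPM in WT, 73.6 to 164.9 without CD97 and 75.9 to 94.9 without Gα13, and Txndc5, itself a disulfide isomerase gene, was the most abundant. Fold changes were above 0 for 7 of the 8 in each knockout, with medians of 0.521 in CD97 and 0.218 in Gα13 deficiency, or 0.373 and -0.021 without WT library 3. The summed red pulp macrophage markers ran from 947.1 to 2264.4 CPM in WT, from 1086.3 to 2855.1 without CD97 and from 1401.0 to 1884.4 without Gα13. Of the 18 macrophage markers 16 had a fold change above 0 in CD97 deficiency (median 0.819) and 12 in Gα13 deficiency (median 0.181), with 1 called higher and 1 lower in each. Those medians were 0.419 and -0.075 without WT library 3. With the macrophage level as a term, edgeR called P4hb and Ppp1r15a in CD97 deficiency and P4hb, Calr, Creld2 and Pdia6 in Gα13 deficiency. Markers of plasmacytoid dendritic cells, a subset with a secretory morphology, had 4 of 14 called higher in Gα13 deficiency, among them Cox6a2, Pltp and Tcf4 with log2 fold changes of 2.89, 0.71 and 0.40. Fold changes were above 0 for 12 of the 14, and 3 were called higher without WT library 3. The 14 markers summed to 993.0 to 1244.3 CPM in WT and 1015.2 to 1259.7 without Gα13. Zeb2, the most abundant of them, was at 291.1 to 363.8 CPM in WT and 208.6 to 293.8 without Gα13. Pltp was also called higher in CD97 deficiency. The part of plasmacytoid dendritic cells in the Gα13 result was not tested.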

How the data were processed

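RNA-seq libraries of splenic cDC2 were sequenced in bulk. Reads were aligned with STAR and counted with HTSeq against mm10, per the submitters' processing notes, which also name DESeq2; their versions and the strand setting are not given in the sources used here. The authors deposited 1 table of whole-number counts for each gene. Every row had a total of at least 10 counts over the 9 libraries, so absent genes may have been removed before deposit. All values here were computed from those counts.

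Library totals were 5679946 to 13904646, and 3 counts correspond to 0.216 to 0.528 CPM. Low-count genes were removed with filterByExpr, leaving 12043. One edgeR 4.0.16 fit (R 4.3.3; limma 3.58.1) over the 9 libraries used TMM factors, glmQLFit with robust estimation and quasi-likelihood F-tests, with Benjamini-Hochberg adjustment over all genes tested and a threshold of 0.05. Alternatives were RLE factors, library totals, no filter, DESeq2 1.42.0, 2 groups only, a replicate block, terms for sex pattern, macrophage level and cell cycle level, and leaving out each library. WT columns were matched to samples through the start of their source names, which are read file names.

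Deviations of same-numbered Gα13-deficient and WT libraries correlated at 0.111 to 0.179 in 3 of 3 pairs (other pairs -0.12 to -0.0207). Those numbers were therefore treated as pairing the samples, but only in the fits with a replicate block. The main fit over the 9 libraries held no block, so its Gα13 values are unpaired. The pairing rests on the data and on the sample titles, since the labels name no shared mouse or day. The count table and source names number WT libraries 1 to 3 as 2 to 4, and by those numbers the shared pairs correlated at -0.12 and -0.0645 (CD97-deficient: 0.118 and 0.116), so the pairing is uncertain. In 9 of 9 within-group pairs, libraries differed by more than sampling noise.

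Named genes were the called members, the 4 of smallest p where fewer than 4 were called, the sensors, Hspa5, the 4 highest and lowest WT levels, and up to 4 called genes of each other list. Sesn2, Atf3, Chac1, Asns and Bloc1s1 were named after their values were seen. Members and lists were chosen with earlier results of these data known. Exon lengths came from GENCODE M21, with 12797 symbols matched directly and 1218 by synonym, and promoters from RefSeq (GRCm38.p6).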

Additional observations from a re-analysis of the deposited data

How the results depend on the processing

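The Gα13 call of Calr and the P4hb call in both comparisons held in 9 of 9 fits with 1 library removed. Leaving out 1 library gave 364 to 1271 called genes and 1 to 4 called members in CD97 deficiency, 693 to 1459 and 3 to 8 in Gα13 deficiency, and 4 to 25 and 0 between the knockouts. The fewest genes were called without CD97-deficient library 3 and without Gα13-deficient library 2 in those 2 comparisons, and the most without WT library 2. Between the knockouts 4 were called without CD97-deficient library 1 or 2 or Gα13-deficient library 1, and 25 without WT library 2 or Gα13-deficient library 3. In CD97 deficiency 1 member was called without WT library 1 or CD97-deficient library 1 or 3, and in Gα13 deficiency 3 were without Gα13-deficient library 2 or 3. Member medians ranged from 0.039 to 0.125, 0.140 to 0.261 and 0.057 to 0.107. Between the knockouts, no filter gave 11 called genes, DESeq2 55, 2 groups only 53, and the macrophage and cell cycle terms 15 and 20, against 6. The sex pattern term gave 222 genes and 0 members in CD97 deficiency, against 1027 and 3, and the macrophage term 559 genes. The cell cycle term gave 0 genes, 0 members and a median of 0.009 in CD97 deficiency and 1 gene and 0 members in Gα13 deficiency, against 1322 and 6. The cause of these shifts was not tested.

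The replicate block gave 14 called genes between the knockouts, or 73 with 2 groups only, and 1 member, Ppp1r15a, which DESeq2 and the fit on 2 groups only also called. Their same-numbered libraries correlated at -0.0731 to 0.0112, and those of CD97-deficient and WT libraries at -0.301 to 0.0594, so the numbers were not taken as pairing there. With the block, 1338 genes were called in Gα13 deficiency. It added Hspa5 there (adjusted p 0.0204) and kept Eif2ak3 (0.0471) and Hyou1 (0.0329). The fit on 2 groups only did not call Eif2ak3 and Hyou1 without the block (0.0656 and 0.0874) or with it (0.054 and 0.0583). It called Hspa5 with the block (0.0337) but not without it (0.134).

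Signs turned for values that were mostly not called. In CD97 deficiency Xbp1 was at 0.013 with library totals, 0.032 with the macrophage term, 0.363 with the cell cycle term and -0.092 to 0.039 without 1 library. In Gα13 deficiency it was at 0.015, with the macrophage term, 0.394 with the cell cycle term and -0.094 to 0.037. The cell cycle term gave Manf -0.111 and Ddit3 0.009 in CD97 deficiency, and Calr -0.139, Pdia6 -0.136, Hyou1 -0.225 and Ddit3 0.179 in Gα13 deficiency. Leaving out 1 library gave -0.014 to 0.140 for Atf6 and -0.123 to 0.223 for Ppp1r15a in Gα13 deficiency. Depth limits Trib3, Chac1 and Asns, which had too few counts for a test.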

Other observations

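Markers of other cells were read in the same libraries. Of 17 listed cDC2 and pan-dendritic markers none was called by edgeR in CD97 deficiency. There were 7 at an unadjusted p under 0.05, beside 2946 of all 12043 genes tested. In Gα13 deficiency Itgam, Itgax and Tbx21 were called higher (log2 fold changes 0.42, 0.34 and 0.62) and Irf4, Esam and Cd4 lower (-0.37, -0.53 and -0.66). Of 10 cDC1 markers in the table, Naaa and Xcr1 were called higher and Tlr11 lower in both knockouts. Cr2 was the only B cell marker called, lower in Gα13 deficiency (-1.19), and Cx3cr1 the only monocyte and neutrophil marker, higher there (1.53), where all 7 tested markers of that list were above 0 (median 0.818). Of 18 red pulp macrophage markers, 16 were above 0 in CD97 deficiency (median 0.819) and 12 in Gα13 deficiency (0.181). Among them Emr1 was called lower in both (-0.62 and -0.73), Cd68 higher in CD97 deficiency (0.32) and Itgad higher in Gα13 deficiency (2.15). In CD97 deficiency the plasmacytoid list had Pltp called higher (0.64) and Zeb2 lower (-0.55). Of the T and NK cell and erythroid markers, 5 and 3 were tested and none was called.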
